A study of Arabidopsis thaliana with 21 samples.

Results

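The SAUR (SMALL AUXIN UP RNA) genes form the largest family of early auxin-responsive genes in plants. They encode short proteins, and auxin raises the transcripts of many of them soon after treatment. Members of the SAUR19 and SAUR63 subfamilies promote cell elongation: they inhibit PP2C.D phosphatases, which keeps plasma membrane H+-ATPases active and the cell wall acidic. Many members lie in tandem arrays of near copies. Genes were taken as members when their TAIR10 symbol or a synonym was SAUR followed by digits, or when their product was named a SAUR-like auxin-responsive protein. This gave 80 of 33056 nuclear genes, of which 78 met both criteria and 2 met the symbol alone (SAUR79, AT2G35290, and AT5G01830, whose product is an ARM repeat protein although its symbol is SAUR21). The member genes were 396 to 2865 bp long with a median of 815 bp. On the 5 nuclear chromosomes lay 20, 12, 14, 18 and 16 of them, and all were protein-coding.

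Chromatin immunoprecipitation sequencing (ChIP-seq) was carried out on *Arabidopsis thaliana* seedlings 7 days after germination (DAG), with 2 replicates per group. H2AK121ub, monoubiquitinated histone H2A, is laid down by Polycomb repressive complex 1 (PRC1), and H3K27me3, trimethylated histone H3, by PRC2. H2AK121ub was profiled in *atbmi1a/b/c* triple mutants, which lack AtBMI1 RING-finger proteins of PRC1, in *clf28/swn7* double mutants, which lack the PRC2 methyltransferases CURLY LEAF and SWINGER, in *lhp1* mutants (the *tfl2-2* allele), which lack a protein that binds H3K27me3, and in Col-0 wild type (WT). H3K27me3 was profiled in *atbmi1a/b/c*, *clf28/swn7* and WT. Plants of all groups were grown in long days, and each library was made from whole seedlings, so that all cell types of a seedling are mixed. A change in a bulk sample can come from fewer cells that carry a mark or from less of it per cell, and these cannot be told apart here.

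Reads within a library's own peaks came to 7151170 and 7490200 for WT H2AK121ub, 1760466 to 2911263 in *atbmi1a/b/c*, 6599071 to 6884454 in *clf28/swn7* and 7802828 to 9097784 in *lhp1*. For H3K27me3 they came to 4274153 to 4933021 in *atbmi1a/b/c* against 4665828 to 6040158 in its WT, and to 761013 and 1188065 in *clf28/swn7* against 6275237 to 9575222. The WT H2AK121ub values were the same in the tables of the 3 mutants, so the 3 H2AK121ub comparisons share 2 control libraries. A log2 change is the fitted change of mutant over WT in the reads of a peak, with its standard error (SE), after the authors' rescaling of each replicate pair. The median shift of this rescaling was -0.143 to 0.137 log2, so the changes stand near ratios of unscaled reads. For H3K27me3 in *clf28/swn7* only 75 and 144 regions were called in both mutant and WT. The study reports that *atbmi1a/b/c* libraries gave less DNA and mapped less well. It holds that the loss of H2AK121ub is likely underestimated. A member was called reduced or increased when its adjusted p-value was below 0.05, and it was represented by the peak with the most reads over its body or the 2 kb upstream of its start. Matched peaks were placed by their limits in replicate 1.

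Of the members, 33 lay in 7 tandem clusters, runs of at least 3 members with at most 10 kb between neighbors. Cluster 1 (chr1:10301377-10308246) held SAUR61 to SAUR65 and cluster 2 (chr1:10319732-10323239) AT1G29490, SAUR66 and SAUR67. The gap between these clusters was 11485 bp. Cluster 3 (chr2:9083906-9090052) held SAUR7, SAUR6 and SAUR12, cluster 4 (chr3:976715-983768) SAUR29, SAUR28, SAUR27, SAUR73 and SAUR26, and cluster 5 (chr4:16577180-16599568) SAUR49, SAUR50 and SAUR1 to SAUR5. Cluster 6 (chr4:18121526-18131284) held SAUR13 to SAUR16 and cluster 7 (chr5:5962773-5984308) SAUR19, SAUR20, AT5G18030, SAUR22, SAUR23 and SAUR24. The other 47 members lay outside clusters.

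The promoters of 5 members on which the comparisons below turn are shown as the 250 bases before the annotated gene start, from the TAIR10.1 genome. SAUR62 lost most H2AK121ub in *clf28/swn7*, at a peak over SAUR63. SAUR7 and SAUR15 lost the mark in that mutant and had more reads in *lhp1*, SAUR15 at a peak over SAUR14. These peaks of SAUR62 and SAUR15 lay outside the promoters shown. A WT peak over SAUR15 itself held fewer reads and did not represent it. SAUR17 gained H2AK121ub in *clf28/swn7*, and SAUR77 lost most H3K27me3 in *atbmi1a/b/c*. The windows are chr1:10303419-10303668 (minus strand), chr2:9084804-9085053 (minus strand), chr4:18125807-18126056 (plus strand), chr4:6029818-6030067 (minus strand) and chr1:5940042-5940291 (plus strand). Capitals mark matches, on either strand, to TGTCTC or TGTCGG (auxin response elements), CACGTG (G-box), AAACCCTA (telobox) or CATGCA (RY core).
SAUR62: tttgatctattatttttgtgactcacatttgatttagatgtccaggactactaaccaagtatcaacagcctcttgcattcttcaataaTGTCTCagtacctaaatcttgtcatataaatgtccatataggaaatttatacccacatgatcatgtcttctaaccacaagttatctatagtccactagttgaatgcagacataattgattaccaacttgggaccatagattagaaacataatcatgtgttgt
SAUR7: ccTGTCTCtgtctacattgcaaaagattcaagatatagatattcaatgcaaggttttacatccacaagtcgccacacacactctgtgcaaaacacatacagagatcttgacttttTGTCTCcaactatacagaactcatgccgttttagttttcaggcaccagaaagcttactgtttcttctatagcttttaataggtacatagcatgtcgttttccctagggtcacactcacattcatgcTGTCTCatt
SAUR15: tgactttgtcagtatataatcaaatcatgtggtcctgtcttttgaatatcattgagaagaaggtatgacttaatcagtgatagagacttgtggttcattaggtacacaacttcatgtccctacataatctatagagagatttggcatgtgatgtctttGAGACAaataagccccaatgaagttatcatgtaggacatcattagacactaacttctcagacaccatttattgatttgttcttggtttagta
SAUR17: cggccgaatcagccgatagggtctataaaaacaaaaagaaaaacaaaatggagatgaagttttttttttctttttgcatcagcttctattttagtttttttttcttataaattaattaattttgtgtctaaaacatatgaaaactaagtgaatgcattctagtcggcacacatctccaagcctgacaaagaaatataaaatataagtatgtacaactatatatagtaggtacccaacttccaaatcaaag
SAUR77: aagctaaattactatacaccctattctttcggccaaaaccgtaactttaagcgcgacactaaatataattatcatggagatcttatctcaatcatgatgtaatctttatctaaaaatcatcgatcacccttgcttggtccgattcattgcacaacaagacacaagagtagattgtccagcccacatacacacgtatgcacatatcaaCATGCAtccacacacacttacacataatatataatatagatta

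SAUR7 held 3 matches to TGTCTC in this window and SAUR62 held 1. In SAUR15, whose transcript is the classic auxin-induced SAUR-AC1 RNA, the 1 match lay on the opposite strand. SAUR77 held 1 RY core, and SAUR17 held no match. Over windows from 250 bases before to 50 bases after the start, TGTCTC was found in 11 of the 80 SAUR promoters (13.8%) and in 14.2% of 33054 promoters of nuclear genes. TGTCGG was found in 2.5% against 5.03%, CACGTG in 1.25% against 7.05%, AAACCCTA in 3.75% against 6.16% and CATGCA in 12 of the 80 against 10.2%. Of the promoters with TGTCTC, 8 belonged to the 33 clustered members (SAUR62, SAUR66, SAUR67, SAUR7, SAUR6, SAUR15, SAUR20 and SAUR22) and 3 to the 47 others (SAUR58, SAUR74 and SAUR37). The 1 member with CACGTG was SAUR59, and those with TGTCGG were SAUR63 and SAUR28. A match is a stretch of letters and was not tested as a binding site.

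The first question was which Polycomb marks these genes carry in WT. H2AK121ub was the prevailing mark: 67 of the 80 SAUR genes (83.8%) had a WT peak over the gene body or the 2 kb upstream in both replicates, against 64.2% of all nuclear genes and 67.0% of protein-coding genes. H3K27me3 was found at 34 (42.5%), against 33.5% and 34.3%. Both marks were carried by 31 SAUR genes (38.8%, against 8941 of all 33056 nuclear genes and 28.4% of protein-coding genes), only H2AK121ub by 36 (45.0% against 37.1%), only H3K27me3 by 3 (3.75% against 6.4%) and neither by 10 (12.5% against 29.4%). With peaks over the gene body alone, H2AK121ub was found at 76.2% of SAUR genes and 45.8% of all genes, and H3K27me3 at 35.0% and 21.8%. These shares are a description, with no test. The H3K27me3 share was 23.8%, beside 23.3% of all genes, when only peaks with at least the median reads per kb were kept.

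**Figure D1:**
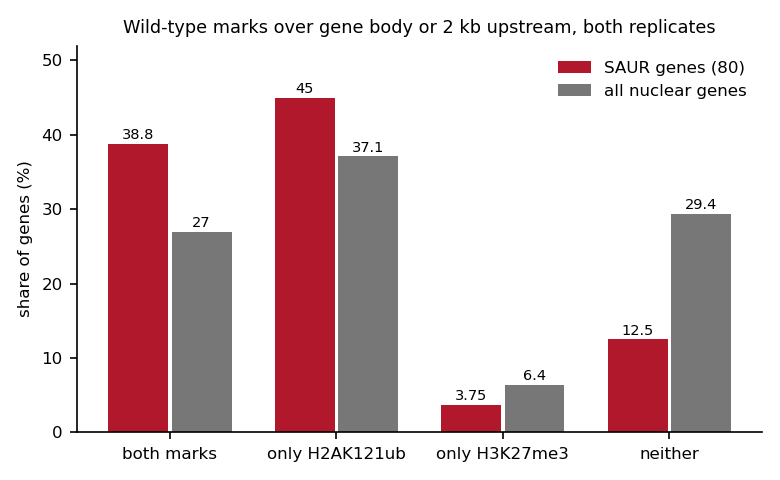
Share (%) of the 80 SAUR genes and of all 33056 nuclear genes in each WT class, with a class taken from peaks found in both replicates. SAUR genes with only H2AK121ub make up 45.0% and those with neither mark 12.5%.

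H3K27me3 was carried by fewer of the clustered members than of the others. Among the 33 clustered members, 21 carried only H2AK121ub, 8 both marks and 4 neither. Outside clusters, 15 carried only H2AK121ub, 23 both marks, 3 only H3K27me3 and 6 neither. Clusters 1, 2, 4 and 7 held no member that carried H3K27me3. In cluster 5, SAUR1 to SAUR5 and SAUR50 carried it, on 3 matched peaks, and in clusters 3 and 6 the mark lay over 1 member each, SAUR12 and SAUR16. The 3 members with only H3K27me3 were SAUR42, SAUR31 and SAUR37. The 10 with neither mark were AT1G29490, SAUR66, SAUR67, SAUR58, SAUR56, SAUR48, SAUR47, SAUR35, SAUR24 and SAUR75. All of cluster 2 was among these.

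**Figure D2:**
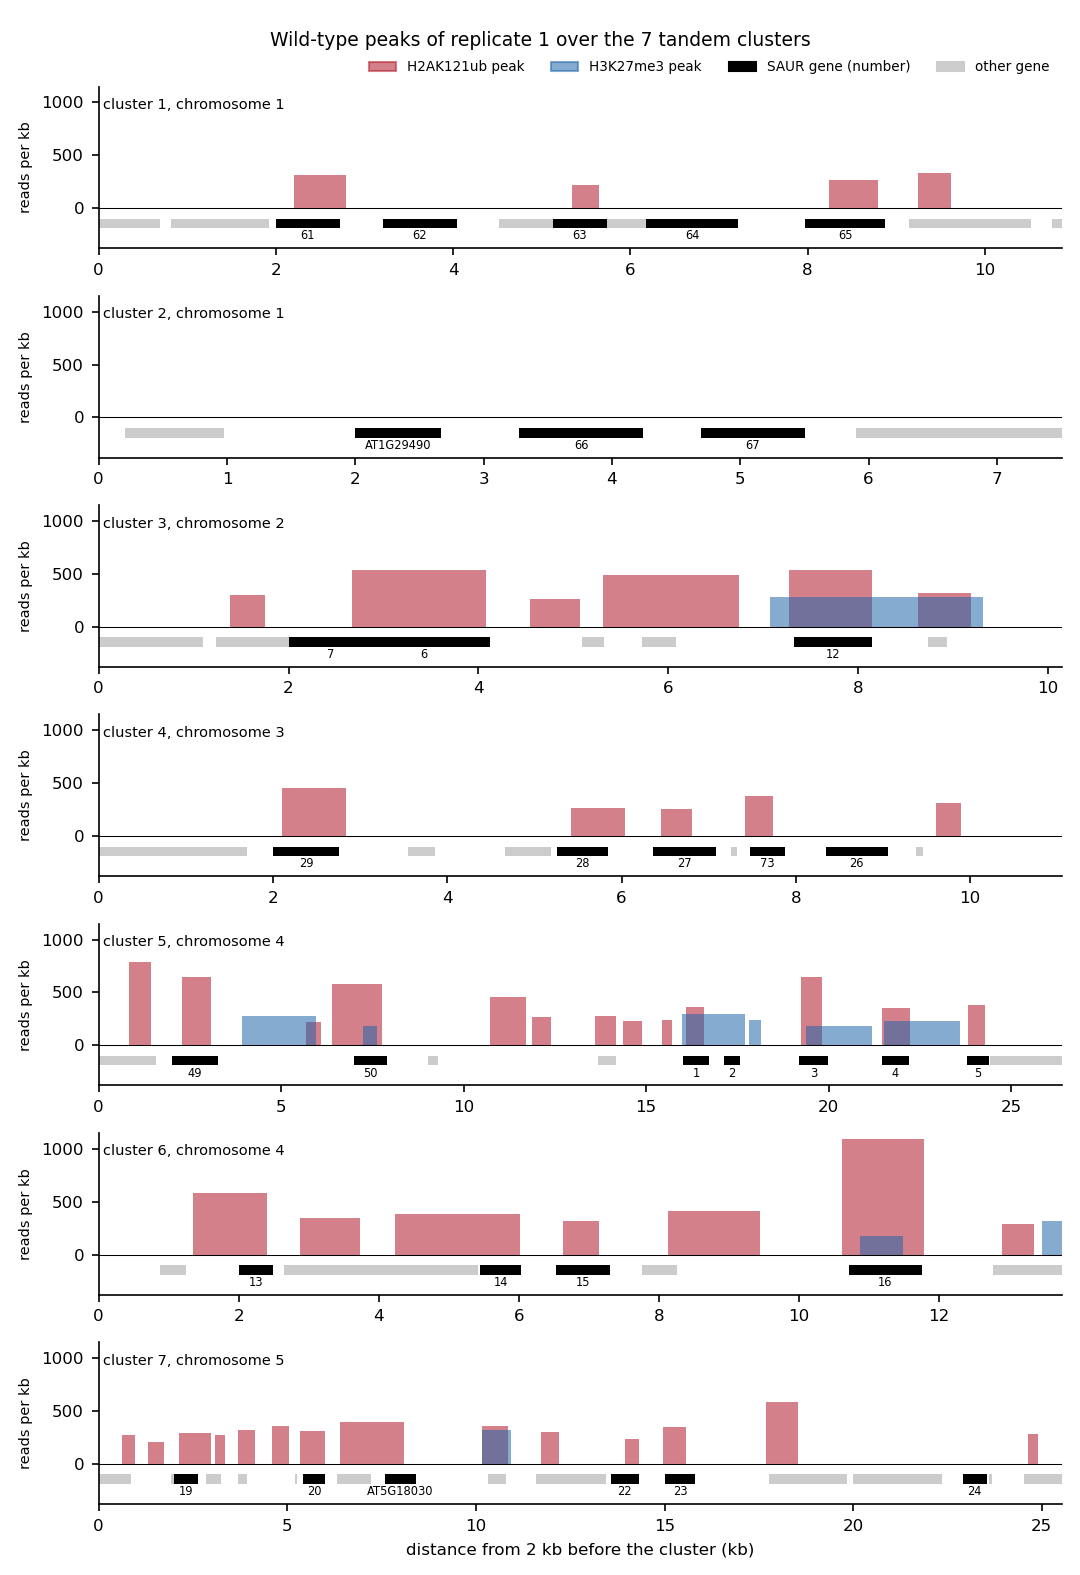
WT peaks of replicate 1 over the 7 clusters. Each box spans a peak along the distance from 2 kb before the cluster (kb) and its height is the peak's reads per kb, with H3K27me3 from the controls of *atbmi1a/b/c*; black bars are SAUR genes and gray bars other genes. Cluster 2 held no peak in this replicate, and H3K27me3 peaks lay in clusters 3, 5, 6 and 7, in cluster 7 outside the windows of its members.

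H2AK121ub reads differed widely among members. The strongest WT peak of a member held 220 to 1260 reads per kb in replicate 1, with a median of 447, and 210 to 1160 in replicate 2, with a median of 441. Medians over all genes with a peak were 421 and 417. SAUR41, of a subfamily that acts in cell expansion, stood highest with 870 reads in replicate 1 and 858 in replicate 2 over its peak (1260 and 1160 reads per kb). Its paralog SAUR71 had more reads, 1367 and 1353, over a longer peak (623 and 609 reads per kb). SAUR61 had 186 and 236 reads, or 315 and 358 reads per kb. The peak covered the gene start in 36.2% and 34.8% of SAUR genes with a peak and in 16.5% and 18.1% of all genes with one, and its median length was 762 and 757 bp. H3K27me3 peaks at SAUR genes were longer, with a median of 1737 and 1649 bp, and held a median of 275 and 218 reads per kb against 321 and 251 over all genes.

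In *atbmi1a/b/c* the question was how far H2AK121ub at these genes depends on the AtBMI1 proteins. H2AK121ub was reduced at most SAUR genes with a peak. Of 71 members tested, 61 were reduced and none increased, against 66.0% of 22053 genes reduced and 0.662% increased (edgeR quasi-likelihood test). At an unadjusted p-value under 0.05, 1 member was increased, and DESeq2 with its own size factors called 6 increased. The median log2 change of the members was -1.25 (-1.58 in replicate 1 and -0.99 in replicate 2), or 41.9% of WT, and that of all genes tested was -0.98. Under scaling by total reads the median of all genes moved to 0.02, and 26 members were reduced and 9 increased (24.9% and 25.4% of all genes). Relative to all genes the median of the members stayed between -0.29 and -0.28 under every scaling.

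The members that lost most included a pair of neighbors. SAUR70 (AT5G20810) had 66 reads in *atbmi1a/b/c* replicate 1 and 56 in replicate 2, against 414 and 417 in WT. Its log2 change was -2.66 (SE 0.37), or 15.9% of WT, with an adjusted p-value of 3.6e-11. SAUR76 (AT5G20820), which lies 916 bp from it and whose group SAUR76 to SAUR78 acts in ethylene signaling, had 132 and 176 reads against 850 and 989. Its log2 change was -2.46 (SE 0.35, adjusted p = 1.3e-10). The peak shared by SAUR73 and SAUR26 had 11 and 34 reads against 120 and 139, a log2 change of -2.53 (SE 0.45, adjusted p = 3.8e-07). The unscaled mutant and WT reads did not overlap at any of these peaks. The mutant libraries also held fewer reads over all peak regions, 2796942 and 4212464 against 7278519 and 7677415. The share of all peaks without such overlap was not counted. SAUR62 and SAUR63 shared a small peak with 8 and 23 reads against 67 and 74 (log2 change -2.17, SE 0.50, adjusted p = 8.6e-05), a call that DESeq2 with its own size factors lost (adjusted p = 0.14). The peaks of SAUR70, of SAUR73 and SAUR26, and of SAUR62 and SAUR63 were called in WT alone in both replicates. Low mutant values were thus favored by how these peaks entered the test.

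Each functional group held reduced members, fewer under scaling by total reads. Of all genes tested 66.0% were reduced (median -0.98). In the SAUR19 to SAUR24 group, which promotes hypocotyl and stamen filament growth, 5 of 6 members were reduced. These lay on 3 of 4 distinct peaks, and the median log2 change was -1.06. In the SAUR61 to SAUR68 and SAUR75 group 5 of 5 tested were reduced, on 3 distinct peaks (median -1.73), and 4 of 9 had no matched peak. The thermoresponsive SAUR26 to SAUR29 group was reduced at 4 of 4, on 3 distinct peaks (median -1.45). Also reduced at 4 of 4 were SAUR40, SAUR41, SAUR71 and SAUR72 (median -1.36) and SAUR10, SAUR14, SAUR16 and SAUR50 (median -1.46). Of the last group, SAUR14, SAUR16 and SAUR50 are light-induced in cotyledons. SAUR76 to SAUR78 were reduced at 3 of 3 (median -1.91), and so were SAUR15, SAUR32 and SAUR36 (median -1.27). Under scaling by total reads the reduced members of these groups, in the same order, numbered 2, 3, 1, 2, 2, 2 and 1, with 1 increased in the SAUR19 to SAUR24 group, whose median was -0.06. Over all genes 24.9% were reduced and 25.4% increased under that scaling. The group medians stayed negative, but of the 61 reduced members 11 changed sign under total reads, 10 under TMM and 9 under DESeq2, with none called in the other direction. These were SAUR64, SAUR65, SAUR57, SAUR50, SAUR9, AT5G01830, SAUR22, SAUR23 and SAUR43 under all 3 scalings, SAUR38 under total reads and TMM, and SAUR33 under total reads. The peaks of SAUR64 and SAUR65, of SAUR50, and of SAUR22 and SAUR23 lay between 0.0 and 0.17 there.

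Among the 10 members tested and not called were all those tested that carried no H2AK121ub peak in WT in both replicates. SAUR58, with 79 and 53 reads in WT, stood at 124.0% of WT in replicate 1 and 237.0% in replicate 2 (log2 change 0.77, SE 0.38, adjusted p = 0.061). SAUR24 had 59 and 97 reads against 49 and 53 (0.67, SE 0.41, adjusted p = 0.13). SAUR31, SAUR17 and SAUR37 had log2 changes of 0.18, 0.11 and 0.17. SAUR58 and SAUR24 carried neither mark in WT, and SAUR31 and SAUR37 only H3K27me3. The peaks of SAUR58 and SAUR24 had no counterpart called in WT in either replicate, and those of SAUR31 and SAUR37 had none in 1 replicate, so that they were tested because the mutant had a peak and their values above WT are no finding. Under scaling by total reads all of SAUR58, SAUR24, SAUR31 and SAUR37 were called increased, with medians of 1.74 for the members with neither mark and 1.18 for those with only H3K27me3. Members with only H2AK121ub were reduced at 34 of 36 (median -1.49), beside 71.8% of all genes of that class (median -1.04). Members with both marks were reduced at 27 of 31 (median -1.25), beside 64.6% (median -0.95).

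In *clf28/swn7* the question was whether H2AK121ub needs PRC2. Clustered SAUR genes were reduced more often than the others. Of 70 members tested, 38 were reduced and 2 increased, beside 34.4% of 23669 genes reduced and 12.9% increased. The median log2 change was -0.29 (-0.31 and -0.28 in the replicates), against -0.13 over all genes. Under scaling by total reads the median of all genes moved to 0.03, and 25 members were reduced and 7 increased (20.9% and 22.6% of all genes). Clustered members were reduced at 24 of 29, with a median of -0.71, and the 41 outside clusters at 14, with 2 increased and a median of -0.09. Since neighbors share peaks, the clustered reductions rest on 16 of 20 distinct peaks. The clustered median stayed between -0.71 and -0.56 under every scaling, while that outside clusters turned to 0.06 under scaling by total reads. Counts depended on the block: without it 12 members were reduced and none increased, 7 of the 12 in clusters, with 30 reduced and 2 increased at an unadjusted p-value under 0.05. Over all genes 7.17% were reduced and 1.63% increased without the block. The difference between places was not tested. In clusters, the peaks of SAUR61 to SAUR64, SAUR27, SAUR28, SAUR73 and SAUR26 were called in WT alone in both replicates. Those of SAUR1, SAUR14, SAUR15, SAUR20 and AT5G18030 were so in a single replicate. Outside clusters only the peak of SAUR60 was called in WT alone. Low mutant values were thus favored more often in clusters by how the peaks entered the test.

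The same order of places was seen within WT classes. Members with only H2AK121ub were reduced at 19 of 21 in clusters, on 13 of 15 distinct peaks (median -0.95). Outside they were reduced at 7 of 15 (median -0.27), and 46.4% of all genes of that class were reduced (median -0.27). Members with both marks were reduced at 5 of 8 in clusters, but on 3 of 6 distinct peaks (median -0.55). Outside they were reduced at 7 of 23, where 2 were increased (median -0.06, which turned to 0.10 under scaling by total reads). Over all genes with both marks 2408 of 8920 were reduced (median -0.05). All tested members of clusters 1 (5 of 5, median -1.92), 6 (4 of 4, median -1.26) and 7 (5 of 5, median -0.84) were reduced, on 4, 3 and 3 distinct peaks. Reduced were also 4 of 5 in cluster 4 (median -0.71), 5 of 7 in cluster 5 (median -0.55) and 1 of 3 in cluster 3 (median -0.11, which turned to 0.05 under scaling by total reads). These reductions lay on 2 of 3, 3 of 5 and 1 of 2 distinct peaks. The reduced peak of cluster 3, counted for SAUR7, also lay over SAUR6, which was counted by another peak. Peaks called in WT alone were among those of clusters 1, 4, 5, 6 and 7.

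**Figure D3:**
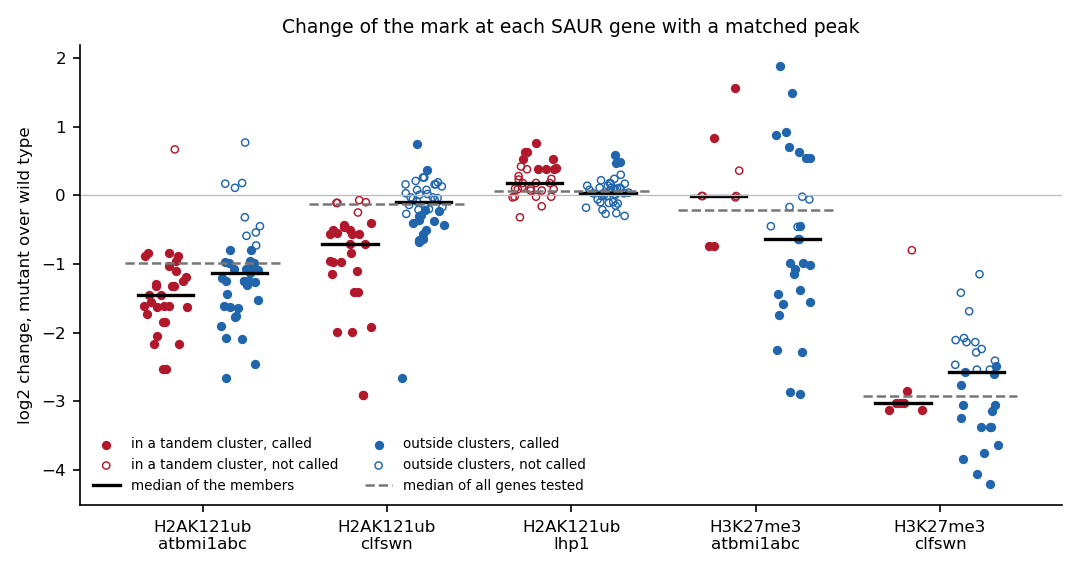
Fitted log2 change of mutant over WT for each member with a matched peak, by comparison, with clustered members in red and the others in blue; filled points passed an adjusted p-value of 0.05, black bars are medians of the members and dashed lines medians of all genes tested. In *clf28/swn7* the H2AK121ub medians were -0.71 in clusters and -0.09 outside, the latter 0.06 under scaling by total reads.

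SAUR62 and SAUR63, whose products belong to a subfamily that promotes hypocotyl elongation, changed most. Their shared peak, which lay over SAUR63, had 12 and 6 reads in *clf28/swn7* against 67 and 74 in WT. The log2 change was -2.91 (SE 0.34, adjusted p = 6.4e-16), or 13.3% of WT. SAUR61 followed within the cluster with 55 and 53 reads against 186 and 236 (-1.92, SE 0.18, adjusted p = 4.4e-24). SAUR64 and SAUR65 had log2 changes of -0.95 and -0.46. The peak that represented SAUR64 lay over the body of SAUR65, and that of SAUR65 lay upstream of SAUR65. SAUR63 was 81.1% unique in 100-base words and SAUR62 91.4%, and reads from words that occur more than once in the genome are not kept under unique alignment, in mutant and WT alike. SAUR60, which lies outside clusters, had 57 and 58 reads against 407 and 344 (-2.66, SE 0.16, adjusted p = 1.3e-58). The unscaled mutant and WT reads did not overlap at SAUR60, SAUR61, SAUR62 or SAUR63. The share of all peaks without such overlap was not counted. The peaks of SAUR60 to SAUR64 were called in WT alone in both replicates, so low mutant values were favored by how they entered the test.

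In cluster 7, SAUR20 and AT5G18030 shared a peak with 222 and 57 reads against 685 and 386 (log2 change -1.99, SE 0.13, adjusted p = 6.4e-52). The level was 33.5% of WT in replicate 1 and 15.4% in replicate 2, and without the block the adjusted p-value was 0.15. SAUR19 had 88 and 224 reads against 149 and 433 (-0.84, SE 0.14), and SAUR22 and SAUR23 shared a peak with 134 and 96 against 218 and 122 (-0.51, SE 0.16). In cluster 6, SAUR14 and SAUR15 shared a peak with 266 and 261 reads against 685 and 761 (-1.41, SE 0.11, adjusted p = 1.2e-36), which lay over SAUR14. SAUR16 had 513 and 476 reads against 1273 and 923 (-1.10, SE 0.09, adjusted p = 9.1e-30). In cluster 3, SAUR7 had 338 and 341 reads against 758 and 783 (-1.14, SE 0.10, adjusted p = 2.7e-26), while the peak of SAUR6 and SAUR12 had 603 and 633 against 709 and 661 (-0.11, adjusted p = 0.37). The reduced peak of SAUR7 also lay over the body of SAUR6. SAUR6 was represented by the other peak, upstream of it, because that peak held more reads. The values of neighboring peaks in these clusters were thus unequal, but they do not set SAUR6 apart from SAUR7.

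The members increased in *clf28/swn7* were SAUR17 and SAUR34, and both carried both marks in WT. SAUR17, a gene known for its high expression in etiolated seedlings, had 176 and 272 reads against 133 and 138 in WT. Its log2 change was 0.75 (SE 0.15, adjusted p = 6.5e-06). SAUR34 had 539 and 624 reads against 405 and 525 (0.37, SE 0.10, adjusted p = 0.0014). Their adjusted p-values lay between 0.13 and 0.18 without the block. SAUR76, SAUR77 and SAUR78 had log2 changes of -0.03, -0.16 and -0.03 with no call, and their median turned to 0.12 under scaling by total reads. In SAUR40, SAUR41, SAUR71 and SAUR72 2 of 4 were reduced, SAUR41 the most (-0.63, SE 0.09).

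**Figure D4:**
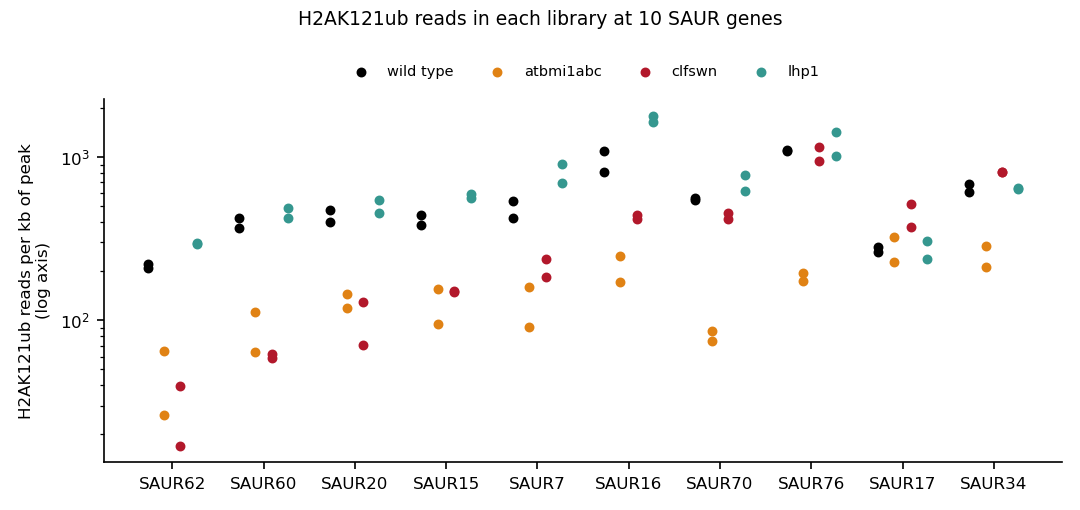
H2AK121ub reads per kb of peak (log axis) in each of the 2 libraries of a group at 10 members, unscaled, for WT (black), *atbmi1a/b/c* (orange), *clf28/swn7* (red) and *lhp1* (green); the peak of SAUR62 in *lhp1* is a different one, over its own body. At SAUR60 both *clf28/swn7* libraries (59.1 and 62.4) lie below WT (422 and 370), and at SAUR70 both *atbmi1a/b/c* libraries (86.4 and 75.0) lie below WT (542 and 558).

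In *lhp1* the question was whether H2AK121ub needs the protein that binds H3K27me3. Few SAUR genes changed, and those that did were increased, though the count rests on the replicate block. Of 70 members tested, 12 were increased and none reduced, against 9.62% and 0.809% of 22510 genes. At an unadjusted p-value under 0.05, 3 were reduced, and DESeq2 called 1 increased and none reduced. The median log2 change of the members was 0.10 (0.07 over all genes). Under scaling by total reads these medians were -0.02 and -0.05, and 5 members were reduced and 6 increased (4.9% and 6.16% of all genes). Without the block no member was called in either direction (9 increased and 1 reduced at an unadjusted p-value under 0.05).

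SAUR16 had the largest change in *lhp1*, with 2092 and 1884 reads against 1273 and 923 in WT (log2 change 0.76, SE 0.13, adjusted p = 3.1e-07). The peak of SAUR6 and SAUR7 had 1278 and 1277 reads against 758 and 783 (0.63, SE 0.12, adjusted p = 2.8e-05). SAUR39 had 594 and 1835 reads against 274 and 1456 (0.59, SE 0.13), a level of 192.0% in replicate 1 and 124.0% in replicate 2. SAUR64 and SAUR65 shared a peak with 259 and 193 reads against 146 and 147 (0.53, SE 0.16, adjusted p = 0.016). SAUR32, which acts in apical hook and hypocotyl growth, had 700 and 654 against 434 and 469 (0.49, SE 0.13, adjusted p = 0.0026). At SAUR16, SAUR6, SAUR7, SAUR64, SAUR65 and SAUR32 the mutant reads lay above those of WT in both replicates, without scaling. The share of all peaks with such unscaled reads was not counted. After rescaling, 10066 of 22510 genes were higher in both replicate pairs. The *lhp1* libraries also held more reads over all peak regions, 9405576 and 8224958 against 7372476 and 7719012. Of the 12, 9 lay in clusters, on 6 peaks, out of 30 clustered members tested. SAUR19 to SAUR24 (5 tested), SAUR26 to SAUR29 (4) and SAUR76 to SAUR78 (3) gave no call, and their log2 changes lay between -0.03 and 0.18.

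H3K27me3 in *atbmi1a/b/c* was measured to see whether this mark depends on PRC1 proteins. SAUR genes changed in both directions. Of the 39 members tested, 19 lost and 10 gained the mark at the threshold, against 46.0% of 12691 genes reduced and 23.7% increased. The median log2 change was -0.45 (-0.66 and -0.26 in the replicates), against -0.22 over all genes, and under scaling by total reads the median of all genes moved to 0.04 and 18 members were reduced and 17 increased (36.9% and 41.1% of all genes). Which H3K27me3 column holds the mutant was read from the naming of the tables, and all H3K27me3 directions rest on it. Outside clusters 17 of 30 members were reduced and 8 increased (median -0.64). In clusters 2 of 9 were reduced and 2 increased, on 1 and 2 of 6 distinct peaks (median -0.01, which turned to 0.26 under scaling by total reads).

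The reduced members were led by SAUR77 (AT1G17345), with 23 and 26 reads in *atbmi1a/b/c* against 207 and 158 in WT. Its log2 change was -2.90 (SE 0.27, adjusted p = 1.1e-25), or 13.4% of WT. SAUR79 had 84 and 79 reads against 673 and 529 (-2.87, SE 0.17, adjusted p = 1.9e-58), SAUR69 had 124 and 75 against 631 and 354 (-2.29, SE 0.17) and SAUR54 had 37 and 53 against 219 and 205 (-2.25, SE 0.23). SAUR37 had 149 and 139 reads against 538 and 441 (-1.75, SE 0.16). SAUR36, whose product acts in leaf senescence and hypocotyl growth, and SAUR32 had log2 changes of -1.59 and -1.56. SAUR70 and SAUR76 shared 1 peak of 3406 bp in replicate 1 with 566 and 363 reads against 1187 and 694 (-0.98, SE 0.13). In all these members both unscaled mutant values lay below both WT values. The share of all peaks without such overlap was not counted. After rescaling, 7274 of 12691 genes were lower in both replicate pairs. Reads over all peak regions were 4770541 and 4205686 in the mutant against 6225930 and 4812260.

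Some of the increased members were tested only because the mutant had a peak: those of SAUR72, AT1G29490 and SAUR58 were called in the mutant alone in both replicates, and that of SAUR30 in replicate 1, so their values are a description. Over all genes tested, 88.7% of those with neither mark in WT and 82.9% of those with only H2AK121ub were increased. SAUR72 stood highest, with 71 and 47 reads against 23 and 9 (log2 change 1.88, SE 0.37, adjusted p = 1.3e-06). This peak lay upstream of the gene, and SAUR72 carried only H2AK121ub in WT. AT1G29490 of cluster 2, where no member was marked in WT, had 735 and 581 reads against 286 and 172 over a peak upstream of the gene (1.56, SE 0.16, adjusted p = 4.1e-21). SAUR58, also marked by neither in WT, had 104 and 73 reads against 46 and 18 (1.49, SE 0.31, adjusted p = 3.4e-06). SAUR30 had 324 and 113 reads against 128 and 86 (0.92, SE 0.20), a level of 255.0% in replicate 1 and 129.0% in replicate 2, and SAUR17 had 204 and 181 against 141 and 73 (0.88, SE 0.20). Without the block the adjusted p-values of SAUR30 and SAUR17 were 0.13 and 0.064. SAUR16, SAUR9, SAUR43, SAUR10 and SAUR34 had log2 changes of 0.84, 0.71, 0.63, 0.55 and 0.54. The 5 leading peaks held 9 to 286 reads in the WT libraries.

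For 37 members both marks had a matched peak in *atbmi1a/b/c*, and these comparisons do not share controls. Both marks were reduced at 16 (43.2%, against 37.7% of 10454 genes), among them SAUR77, SAUR79, SAUR69, SAUR70 and SAUR76. H2AK121ub was reduced and H3K27me3 increased at 6 (16.2% against 8.7%): SAUR10, SAUR72, SAUR34, SAUR9, SAUR16 and SAUR43. The H3K27me3 peak of SAUR72 was among those called only in the mutant, and the H2AK121ub changes of SAUR9 and SAUR43 turned positive under total reads, TMM and DESeq2. H2AK121ub was reduced with H3K27me3 not called at 7 (18.9% against 13.9%). H3K27me3 was reduced with H2AK121ub not called at SAUR54, SAUR37 and SAUR55 (8.11% against 12.2%), and increased with H2AK121ub not called at SAUR58, SAUR17 and SAUR30 (8.11%, against 1101 of the 10454 genes). The peaks of the marks can lie at different places in a member's window. These shares are a description, with no test.

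**Figure D5:**
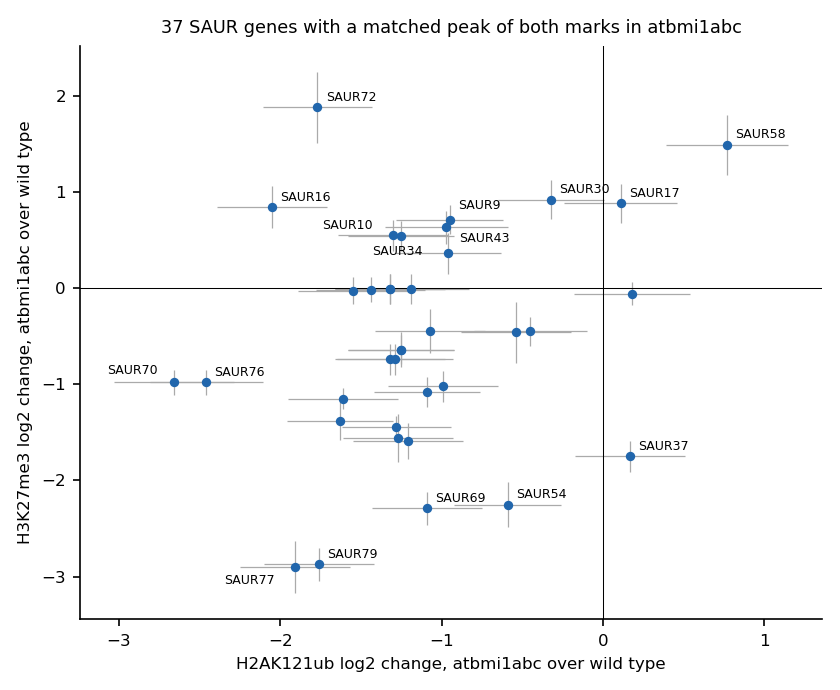
Fitted log2 change of H3K27me3 against that of H2AK121ub in *atbmi1a/b/c* for the 37 members with a matched peak of both. Bars are standard errors of the fitted change, from a model of all matched peaks with 2 replicate pairs. SAUR77 and SAUR79 lie low on both axes, while SAUR72 (-1.77 and 1.88) and SAUR16 (-2.05 and 0.84) lost H2AK121ub and had more H3K27me3, over a peak called only in the mutant at SAUR72.

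In *clf28/swn7*, which lack PRC2 methyltransferases, H3K27me3 reads fell at SAUR genes as over the genome. Of 36 members tested, 22 were reduced and none increased, against 60.8% of 13736 genes reduced and 8.76% increased. The peaks of all 36 were called in WT alone in replicate 1, and all but those of SAUR79 and SAUR33 in replicate 2. Low mutant values were thus favored by how these peaks entered the test, and the calls are a description. No member was increased at an unadjusted p-value under 0.05, and DESeq2 called 3 increased (15.2% of all genes). The median log2 change was -2.81, or 14.3% of WT (9.32% and 19.5% in the replicates), and that of all genes was -2.93. Of the 36 members, on 33 distinct peaks, SAUR50 in replicate 2 alone was above WT. Standard errors were 0.96 to 1.50, and without the block 32 members were reduced. TMM scaling gave 11 reduced and 6 increased (43.3% and 22.6% of all genes), with a median of -0.14 against -0.26 over all genes.

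SAUR18 had the lowest level, with 120 and 73 reads in *clf28/swn7* against 2942 and 1129 in WT (log2 change -4.21, SE 1.48, adjusted p = 0.042). SAUR31 had 49 and 83 reads against 1390 and 903 (-4.06), SAUR34 had 151 and 187 against 3681 and 1831 (-3.84), SAUR76 had 104 and 128 against 2215 and 1234 (-3.75) and SAUR52 had 60 and 92 against 1188 and 802 (-3.64). All unscaled mutant values lay below all WT values at these members. The share of all peaks without such overlap was not counted. After rescaling, 12263 of 13736 genes were lower in both replicate pairs. Reads over all peak regions were 1428193 and 2245276 in the mutant against 9602490 and 6320011. The SAUR34 peak reached only the upstream edge of its window in replicate 1 and lay outside it in replicate 2 (chr4:11899976-11903476). SAUR1, SAUR2 and SAUR3 shared a peak with 60 and 89 reads against 761 and 509 (-3.03), and SAUR4 and SAUR5 one with 78 and 80 against 992 and 520 (-3.13). Both marks were tested at 35 members. H2AK121ub was not called at 21 of them, of which 12 had H3K27me3 reduced (34.3% of the 35, against 36.4% of 11966 genes) and 9 had it not called (25.7% against 16.7%). Both were reduced at 9 (25.7%, against 14.9% of those genes), and SAUR34 had H3K27me3 reduced and H2AK121ub increased, as had 13.2% of all genes.

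The genes that SAUR proteins act with, and other early auxin genes, were set beside them with no test. In WT, H2AK121ub was found at 26 of 29 Aux/IAA genes, which encode auxin-labile repressors, at 10 of 10 GH3 genes, which encode auxin-conjugating enzymes, and at 19 of 25 genes that act with SAURs (PP2C.D phosphatases, AHA1 and AHA2 proton pumps, TIR1/AFB receptors, activating ARFs, PIF4, PIF5 and BZR1). H3K27me3 was found at 13, 6 and 4. Of all nuclear genes 64.2% carried H2AK121ub and 33.5% H3K27me3. H2AK121ub in *atbmi1a/b/c* was reduced at 18 of 27 tested Aux/IAA (median log2 change -1.01), 5 of 10 GH3 (-0.65) and 13 of 19 SAUR-acting genes (-0.92), beside -1.25 in SAUR genes. Of all genes tested 66.0% were reduced (median -0.98). In *clf28/swn7* H2AK121ub was reduced at 12 of 27, 3 of 10 and 12 of 20 (medians -0.22, 0.0 and -0.47), and increased at 3, 1 and 2 (34.4% and 12.9% of all genes, median -0.13). In *lhp1* it was increased at 6 of 26, 1 of 10 and 4 of 22 (9.62% of all genes). H3K27me3 in *atbmi1a/b/c* was reduced at 10 of 19, 2 of 6 and 3 of 5 and increased at 8, 1 and 1 (46.0% and 23.7% of all genes). In *clf28/swn7* it was reduced at 11 of 17, 5 of 7 and 3 of 8 and increased at 2, 0 and 4 (60.8% and 8.76% of all genes).

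Members without a matched peak numbered 9, 10 and 10 for H2AK121ub, in the order *atbmi1a/b/c*, then *clf28/swn7*, then *lhp1*, and 41 and 44 for H3K27me3 in *atbmi1a/b/c* and *clf28/swn7*. AT1G29490, SAUR66, SAUR56 and SAUR75 had no H2AK121ub region in any of the 3 comparisons. Without an H3K27me3 region in both comparisons were, in gene order, SAUR41, SAUR53, SAUR60, SAUR62, SAUR63, SAUR64, SAUR65, SAUR66, SAUR67 and SAUR78, among others. SAUR67, SAUR63 and SAUR75 were the 3 members whose bodies were under 90% unique in 100-base words (78.4%, 81.1% and 88.4%), and reads from near copies there could not be placed. Whether repeated sequence hid peaks at SAUR67 and SAUR75 was not tested.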

How the data were processed

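Per the labels and the study's methods, the authors mapped single-end ChIP-seq reads with Bowtie (build TAIR10; reads that mapped more than once were dropped), called peaks per library with MACS2, and compared each mutant library with the WT library of its replicate by a variant of MAnorm. Each of the 10 deposited tables gives read counts per peak, mutant and WT, which the authors left unscaled. The deposited log2 ratio (M) and mean level (A) columns are the authors' rescaled values; they were used to recover the rescaling line (largest residual 5.9e-14) and are not printed. The deposited p-value column holds the authors' own test and was not used. The files do not state whether starts are counted from 0 or 1, and peak limits are as deposited.

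Regions of the replicates were paired when each was the best overlap of the other (minimum 1 bp). Counts were fitted with edgeR 4.0.16 (quasi-likelihood test, two-sided, R 4.3.3), with the rescaling as offsets and the replicate as a block, because the study compared libraries within replicates. The study describes the 2 replicates as biological; the labels do not say that equal numbers mark a shared culture. P-values were adjusted by Benjamini-Hochberg over all matched peaks. Alternatives were DESeq2 1.42.0, TMM, total reads, no block, a filter of 50 reads in 2 libraries, gene bodies alone, 50% matching and each replicate left out. The code was tested on simulated data. Genes and promoters came from TAIR10.1.

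Members and lists were chosen with earlier results of these data known. Named were up to 5 members per direction with the largest called change of 1 sign in both pairs, 7 fixed groups, all clusters and up to 10 members without a peak; others named with values are neighbors or members of these counts. The protein-coding background and the counts per class, cluster and group under other scalings were chosen after seeing the data.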

Additional observations from a re-analysis of the deposited data

Results flagged for a closer look

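Some members changed in opposite directions in 2 mutants, called in both and in every replicate pair. The differences between mutants were not tested, and the H2AK121ub comparisons share their WT libraries, so each value below is the gap between 2 fitted log2 changes and is a description. For H2AK121ub in *atbmi1a/b/c* and *clf28/swn7*, SAUR34 had log2 changes of -1.25 and 0.37, a gap of 1.62.

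Between *atbmi1a/b/c*, where the mark was reduced, and *lhp1*, where it was increased, the gap was 2.81 at SAUR16, 2.47 at SAUR7 and SAUR6, 2.2 at SAUR39 and 2.01 at SAUR14 and SAUR15. It was 1.76 at SAUR32, 1.68 at SAUR5, 1.37 at SAUR64 and SAUR65, 1.36 at SAUR50 and 1.27 at SAUR57. The *atbmi1a/b/c* changes of SAUR64, SAUR65, SAUR50 and SAUR57 turned positive, or to 0.0 at SAUR50, under total reads, TMM and DESeq2. Between *clf28/swn7* and *lhp1* the gap was 1.86 at SAUR16, 1.79 at SAUR14 and SAUR15, 1.77 at SAUR7, 1.48 at SAUR64, 0.99 at SAUR65 and 0.82 at SAUR39. The gaps of SAUR57 and of SAUR65 in *clf28/swn7* and *lhp1* set different peaks of the member against each other, so that no single peak was measured there in both mutants. None of the *lhp1* increases passed the threshold without the replicate block.

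For H3K27me3, which was increased in *atbmi1a/b/c* and reduced in *clf28/swn7*, the gap was 4.38 at SAUR34 (0.54 and -3.84), 3.6 at SAUR10 (0.55 and -3.05) and 3.2 at SAUR9 (0.71 and -2.49). Peaks of SAUR10 and SAUR34 differed in their limits between these comparisons, and those of SAUR9 did not overlap. The *clf28/swn7* peak of SAUR34 lay outside its window in replicate 2. The *clf28/swn7* change of SAUR9 turned positive, with no call, under TMM and DESeq2.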

How the results depend on the processing

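Scaling moved most values, and the cause was not tested. For H2AK121ub in *atbmi1a/b/c*, total reads gave 26 reduced, 9 increased and a median log2 change of -0.26, TMM 26, 9 and -0.29, and DESeq2 19, 6 and -0.3. Over all genes TMM gave 25.9% reduced and 23.2% increased, and DESeq2 14.1% and 9.96%. At SAUR64 and SAUR65 the change turned to 0.17, 0.14 and 0.14 under these scalings, at SAUR50 to 0.03, 0.01 and 0.0, and at SAUR22 and SAUR23 to 0.14, 0.11 and 0.11. For H2AK121ub in *clf28/swn7*, total reads gave 25 reduced, 7 increased and -0.13, TMM 6 increased and -0.16, DESeq2 14 reduced and -0.16, and gene bodies alone 4 increased and -0.22. In *lhp1*, total reads gave 5 reduced, 6 increased and -0.02, TMM 4 reduced and 0.01, and DESeq2 1 increased and 0.0. Gene bodies alone gave 1 reduced there, and 50% matching a median of 0.09. For H3K27me3 in *atbmi1a/b/c*, total reads gave 17 increased and -0.15, and gene bodies alone 6 increased. For H3K27me3 in *clf28/swn7*, total reads gave 2 increased and -0.75, TMM 11 reduced, 6 increased and -0.14, and DESeq2 8, 3 and -0.2. TMM and DESeq2 turned SAUR40 to 0.16 and 0.1 and SAUR32 to 0.1 and 0.02, and SAUR9 also turned positive, none of them called. WT H3K27me3 was found at 19 members when peaks needed the median reads per kb.

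Without the replicate block 12 members were reduced and 0 increased for H2AK121ub in *clf28/swn7* (30 and 2 at an unadjusted p-value under 0.05, edgeR), 0 were increased in *lhp1* (9 unadjusted) and 5 were increased for H3K27me3 in *atbmi1a/b/c*. The calls that held without the block numbered 58 of 61, 12 of 40, 0 of 12, 22 of 29 and 22 of 22 in the order of the report.

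With 1 replicate left out no test was possible, and members under 80% or over 120% of WT were counted. For H2AK121ub 64 to 66 were reduced and 2 to 5 increased in *atbmi1a/b/c* (median -1.58 to -0.99), 31 to 32 and 3 to 5 in *clf28/swn7* (-0.31 to -0.28), and 2 to 3 and 20 to 21 in *lhp1* (0.09 to 0.11). For H3K27me3 19 to 21 were reduced and 11 increased in *atbmi1a/b/c* (-0.66 to -0.26), and 35 to 36 reduced in *clf28/swn7* (-3.42 to -2.36). Small peaks limit precision: the peak of SAUR62 and SAUR63 held 6 to 74 reads a library in *clf28/swn7* and WT.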
